A study of Homo sapiens with 6 samples.

Results

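The receptor tyrosine kinase FLT3, its transcription factors STAT5A and STAT5B and 7 genes known to be switched on by STAT5 (PIM1, PIM2, PIM3, CISH, SOCS1, SOCS2 and SOCS3) were followed in MOLM-13 cells, an established human acute myeloid leukaemia line that carries a mutated, constitutively active FLT3. They were chosen by symbol, through the Entrez identifiers of the deposited tables, and all 10 were found among the 25420 genes listed, in 34 of the 58136 annotated 3′ UTR entries. The cells were kept for 2 h in DMSO or in 10 µM C646, an inhibitor of the histone acetyltransferases CBP and p300, and 100 µM 4-thiouridine (4sU) was present for the last 1 h in both groups. Newly synthesized transcripts were measured by SLAM-seq, in which sequencing shows a C where 4sU had replaced a uridine, and reads with such T > C conversions (T > C reads) mark RNA made while the label was present. Each group had 3 libraries from this single line, and no source says whether they came from separate cultures, so that p-values measure the spread between these libraries, which may be technical. No library without 4sU was analysed here, so the T > C reads that sequencing errors or other conversions would give by themselves are not known.

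FLT3 is the receptor for FLT3 ligand and sits on early blood progenitors. Its mutated forms in leukaemia signal without ligand and phosphorylate STAT5, which moves to the nucleus and binds a palindromic DNA motif. Among the known STAT5 targets, the PIM genes encode serine/threonine kinases that favour survival and growth, whereas CISH and the SOCS genes encode SH2-domain proteins that dampen cytokine receptor and JAK signalling in a feedback loop. The comparison of C646 with DMSO asks how far T > C reads of these transcripts change within a short treatment with a single dose of this inhibitor. The part of CBP and p300 activity in such a change was not tested.

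The libraries held 7252597 to 10225448 reads on 3′ UTRs, of which 477824 to 833410 were T > C reads. The share of T > C reads in a library was 8.79% ± 0.0637 for DMSO and 6.48% ± 0.203 for C646 (SD, n = 3), and a T > C read carried 2.00 to 2.11 conversions in the DMSO libraries and 1.87 to 1.91 in the C646 libraries. The part of this difference in conversions per read in the results below was not tested. In the tested genes a library gave a median of 35 T > C reads, and PCR copies of a molecule are counted as separate reads. Of 12 myeloid markers, 9 averaged at least 1 CPM (counts per 1000000 reads, with library totals scaled by TMM, edgeR's trimmed mean of M-values) in all reads, led by LYZ, CEBPA, CTSG and CD33, while AZU1, ELANE and CD14 lay below this level. The erythroid markers HBB and ALAS2 had no read. Of 7 T and NK cell markers, 4 passed this level, led by CD4, which monocytic cells also make, at 302 CPM in DMSO and 226 in C646 and NKG7 at 83.8 and 54.6, whereas CD3E and CD3G had no read. The summed level of these 7 was 371 to 461 CPM in DMSO and 166 to 397 in C646. Of 7 epithelial or stromal markers, 3 passed this level, led by PECAM1, which leukocytes also make, and COL1A2 and VWF had no read. The summed level of the epithelial or stromal markers was 148 to 163 CPM in DMSO and 98.3 to 133 in C646, nearly all of it PECAM1, which averaged 150 ± 6.22 and 108 ± 18.1 CPM (SD, n = 3). COL1A1 went the other way, from 1.5 ± 0.762 to 6.27 ± 0.537 CPM (SD, n = 3). The part of both marker lists in the results was not tested.

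In C646, T > C reads fell for PIM1, CISH, FLT3, PIM3 and SOCS2, rose for SOCS3, and did not pass the test for SOCS1, STAT5A and STAT5B. PIM2 passed the test but not the size limit. Calls needed both an adjusted p no higher than 0.01 (edgeR's quasi-likelihood test, Benjamini-Hochberg) and a log2 fold change no smaller than 1 in size, after scaling T > C reads by the TMM-scaled total of all reads of the same library. Thus 5 of 10 genes were called lower, where 33.0% of the 7722 tested genes were, and 1 of 10 was called higher, where 2.97% of the tested genes were. The median log2 fold change was −1.09 over the 10 genes and −0.83 over all tested genes. Of all tested genes, 0.816% had a lower log2 fold change than PIM1 and 2.46% a lower one than CISH. A lower one than FLT3 was found for 24.6%, than PIM3 for 25.5%, than SOCS2 for 32.1% and than PIM2 for 45.4%. In such bulk libraries, fewer cells making a transcript and less of it per cell cannot be told apart. When the T > C reads were scaled by TMM on themselves, which moves the median of all genes by 0.83, PIM1 and CISH remained lower and SOCS1 joined SOCS3 as higher. On that scale 2 of 10 genes were called lower and 2 of 10 higher, against 7.60% and 9.14% of the 7847 genes tested, and FLT3, PIM3 and SOCS2 were not called.

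The 10 genes are shown library by library in the plot of T > C and other reads.

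**Figure D1:**
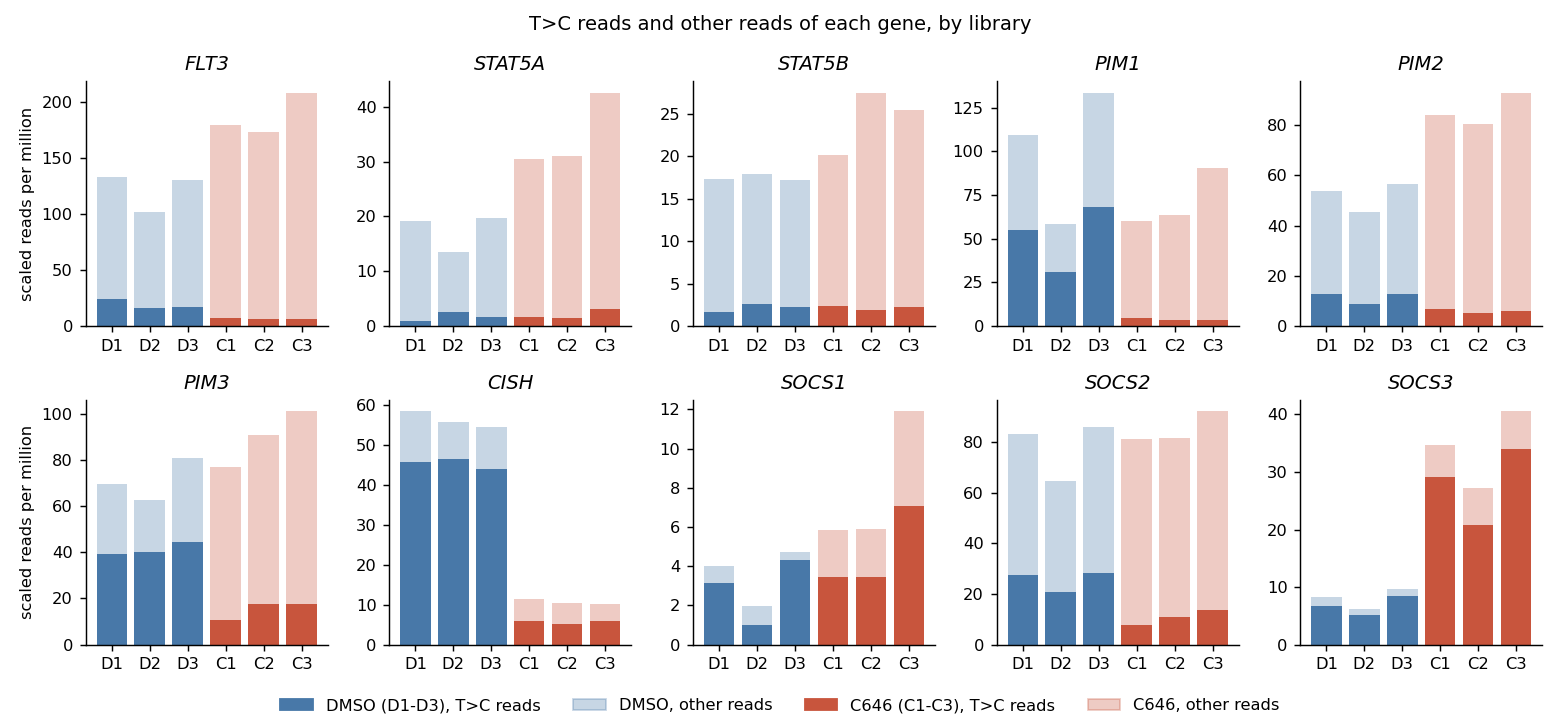
Reads of each gene in scaled CPM (y axis of each panel, from 0) in the 3 DMSO libraries (D1 to D3, blue) and the 3 C646 libraries (C1 to C3, red). The dark part of a bar is T > C reads and the pale part the other reads. The dark part shrinks for PIM1, PIM2, PIM3, CISH, SOCS2 and FLT3 and grows for SOCS3, while the whole bar shrinks clearly for CISH. The whole bar is taller in all C646 than in all DMSO libraries for FLT3, STAT5A, STAT5B, PIM2, SOCS1 and SOCS3.

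FLT3, the receptor itself, fell in T > C reads in C646, while the mean of its total mRNA was higher. DMSO replicates 1, 2 and 3 gave 230, 115 and 123 T > C reads of the gene, whereas the C646 replicates gave 57, 54 and 65 in the same order, which is kept for the other genes. All C646 libraries lay below all DMSO libraries. On the scaled CPM scale, T > C reads of FLT3 were 18.9 ± 4.62 in DMSO and 6.87 ± 0.587 in C646 (SD, n = 3), and the log2 fold change was −1.47 with a standard error (SE) of 0.23 (edgeR's quasi-likelihood test, adjusted p = 6.27e-06). All reads of FLT3 were 122 ± 17.5 CPM in DMSO and 187 ± 18.9 in C646 (SD, n = 3). This log2 difference of 0.62 (SE 0.14) had an adjusted p of 0.00556 in edgeR's quasi-likelihood test but stayed under the size limit of the call. The T > C share of its reads therefore dropped from 15.5% ± 2.75 to 3.70% ± 0.563 (SD, n = 3).

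FLT3 was the only gene of the 10 with more than 1 entry in the annotation. The entry that overlaps its 3′ UTR in GENCODE release 44 (GRCh38, chr13:28003274-28004174, minus strand) held 92.9% of its reads. In this entry, 385 of 2652 reads were T > C reads in DMSO (14.5%, 95% Wilson interval 13.2 to 15.9) and 148 of 4633 in C646 (3.19%, 2.73 to 3.74). The 24 other entries are exons further upstream in the gene, 18 of them with reads, and gave 318 reads in DMSO and 241 in C646. Pooled, their T > C share was 26.1% (21.6 to 31.2) in DMSO and 11.6% (8.16 to 16.3) in C646. Most of their T > C reads came from the exon at chr13:28023350-28023477, with 46 T > C reads of 66 in DMSO and 24 of 39 in C646. Without this exon, which was singled out after its values were seen, the other entries held 37 T > C reads of 252 in DMSO (14.7%, 10.8 to 19.6) and 4 of 202 in C646 (1.98%, 0.773 to 4.98), so that their higher pooled share rested on it. Another exon, at chr13:28025284-28025415, had few reads but 11 T > C reads of 12 in DMSO and 1 of 1 in C646, and without both exons 26 of 240 reads were T > C reads in DMSO and 3 of 201 in C646. These intervals pool the 3 libraries of a group and cover counting error only.

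STAT5A and STAT5B, the transcription factors downstream of the receptor, had few T > C reads and gave no call. STAT5A had 9, 18 and 12 T > C reads in DMSO and 12, 12 and 31 in C646, and STAT5B had 16, 19 and 17 in DMSO and 18, 15 and 22 in C646. The groups overlapped for both genes. In T > C reads the log2 fold change was 0.32 (SE 0.52) for STAT5A and −0.04 (SE 0.47) for STAT5B, with adjusted p-values of 0.623 and 0.954 in edgeR's quasi-likelihood test, and the value of STAT5B turned to 0.79 when the T > C reads were scaled by TMM on themselves. The total mRNA of STAT5A was 17.5 ± 3.42 CPM in DMSO and 34.7 ± 6.85 in C646 (SD, n = 3), without overlap. Its log2 difference of 0.98 (SE 0.20, adjusted p = 0.00255 in edgeR's quasi-likelihood test) lay just under the size limit. That of STAT5B was 17.5 ± 0.361 in DMSO and 24.3 ± 3.79 in C646 (SD, n = 3), a log2 difference of 0.48 (SE 0.18, adjusted p = 0.0601). The log2 ratio of T > C reads of STAT5A to those of STAT5B within a library was −0.45 ± 0.361 in DMSO and −0.13 ± 0.548 in C646 (SD, n = 3), a difference within the spread of either group on these few reads.

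The PIM kinases differed among themselves in size of response. PIM1 had 521, 225 and 508 T > C reads in DMSO and 36, 30 and 36 in C646. Even the lowest DMSO library, replicate 2, lay far above all C646 libraries. The T > C reads fell from 51.5 ± 18.8 to 4.00 ± 0.659 CPM (SD, n = 3), a log2 fold change of −3.69 (SE 0.25, adjusted p = 7.66e-13 in edgeR's quasi-likelihood test) or 12.9-fold lower. Of all tested genes, 0.816% had a lower log2 fold change. For all reads of PIM1 the counts were 1040, 423 and 992 with DMSO and 453, 517 and 914 with C646. The groups overlapped, and the log2 difference of −0.49 (SE 0.24) did not pass the test (adjusted p = 0.131 in edgeR's quasi-likelihood test). With a library left out it ran from −0.77 (without DMSO replicate 2, the lowest of the DMSO libraries) to −0.23 (without DMSO replicate 3), and it was not called in any of these fits.

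PIM3 had 371, 290 and 330 T > C reads in DMSO and 80, 143 and 176 in C646, with no overlap. The fall from 41.2 ± 2.81 to 15.2 ± 3.99 CPM (SD, n = 3) gave a log2 fold change of −1.43 (SE 0.19, adjusted p = 5.70e-07 in edgeR's quasi-likelihood test). PIM2 had 121, 62 and 96 T > C reads in DMSO and 51, 42 and 62 in C646. Scaled, it was 11.4 ± 2.45 CPM in DMSO and 6.01 ± 0.808 in C646 (SD, n = 3) without overlap, and its log2 fold change of −0.93 (SE 0.26, adjusted p = 0.00335 in edgeR's quasi-likelihood test) was just short of the size limit. Without DMSO replicate 2 or without C646 replicate 1 it passed this limit, at −1.10 and −1.01. In all reads the means of PIM2 and PIM3 were no lower in C646. They were 51.8 ± 5.77 CPM in DMSO and 85.7 ± 6.43 in C646 (SD, n = 3) for PIM2, a log2 difference of 0.73 (SE 0.14, adjusted p = 0.00198 in edgeR's quasi-likelihood test) under the size limit, and 71.2 ± 9.21 and 89.6 ± 12.2 for PIM3 (0.33, SE 0.15, adjusted p = 0.107).

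A ratio of 2 genes within a library needs no scaling between libraries. The log2 ratio of T > C reads of PIM1 to those of PIM2 was 2.12 ± 0.274 in DMSO and −0.58 ± 0.167 in C646 (SD, n = 3). That of PIM1 to PIM3 was 0.25 ± 0.536 in DMSO and −1.88 ± 0.643 in C646, and both ratios were separated between the groups. That of PIM2 to PIM3, −1.87 ± 0.312 in DMSO and −1.30 ± 0.582 in C646, overlapped between them.

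CISH, an inhibitor of cytokine signalling and a classical STAT5 target, was the only gene of the 10 whose newly made and total mRNA were both called lower. It had 433, 334 and 327 T > C reads in DMSO and 45, 41 and 59 in C646. For all reads the counts were 554, 401 and 405 with DMSO and 86, 85 and 101 with C646. No C646 library came near a DMSO library in either count. T > C reads fell from 45.3 ± 1.17 to 5.61 ± 0.509 CPM (SD, n = 3), with a log2 fold change of −3.01 (SE 0.20, adjusted p = 3.68e-13 in edgeR's quasi-likelihood test) or 8.06-fold lower. All reads fell from 56.2 ± 1.99 to 10.6 ± 0.696 CPM (SD, n = 3), with a log2 fold change of −2.41 (SE 0.16, adjusted p = 1.65e-07 in edgeR's quasi-likelihood test), and 0.0831% of the 10835 genes tested in all reads had a lower one. The 3′ UTR counted for CISH lies at chr3:50606454-50607606 (GRCh38, minus strand).

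The promoter of CISH is shown because it holds several copies of the STAT5 motif TTCNNNGAA, a palindrome that reads the same on both strands. RefSeq promoter windows (GRCh38.p14, 250 bases before to 50 after a start) were matched for 9 of the 10 genes, in 12 windows, but not for SOCS2. Of all 35116 windows, 2689 (7.66%) hold the motif and 7 (0.0199%) hold 4 or more copies. The CISH window holds 4 copies, which begin 241, 230, 129 and 112 bases before the start, and the windows of the other 8 genes hold no copy. The 250 bases before the start (chr3:50611775-50612024, minus strand) are printed with the motifs in capitals.
CISH: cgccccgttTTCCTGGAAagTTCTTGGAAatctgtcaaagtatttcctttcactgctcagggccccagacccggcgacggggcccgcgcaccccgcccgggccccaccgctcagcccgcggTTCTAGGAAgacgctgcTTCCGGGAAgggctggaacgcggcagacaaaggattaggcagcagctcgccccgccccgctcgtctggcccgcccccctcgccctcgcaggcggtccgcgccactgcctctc

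The SOCS genes, whose proteins restrain JAK and receptor signalling, did not move as 1 group, as SOCS3 was called higher, SOCS2 was called lower like CISH, and SOCS1 was not called. With the scaling used here, SOCS3 was the only gene of the 10 called higher. It had 63, 37 and 63 T > C reads in DMSO and 220, 169 and 342 in C646, and 79, 44 and 72 reads in all in DMSO and 262, 222 and 409 in C646. Every C646 library exceeded every DMSO library in both counts. T > C reads rose from 6.75 ± 1.68 to 27.9 ± 6.69 CPM (SD, n = 3), a log2 fold change of 2.05 (SE 0.23, adjusted p = 2.77e-08 in edgeR's quasi-likelihood test) or 4.13-fold. All reads rose by almost the same measure, from 8.04 ± 1.81 to 34.1 ± 6.70 CPM (SD, n = 3), with a log2 fold change of 2.08 (SE 0.22, adjusted p = 2.30e-05 in edgeR's quasi-likelihood test).

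SOCS2 fell in T > C reads and was not called in all reads. It had 262, 151 and 210 T > C reads in DMSO and 57, 88 and 139 in C646, with no overlap, and the C646 libraries differed widely among themselves. T > C reads went from 25.6 ± 4.06 to 10.7 ± 3.13 CPM (SD, n = 3), a log2 fold change of −1.25 (SE 0.22, adjusted p = 2.70e-05 in edgeR's quasi-likelihood test). All reads were 77.9 ± 11.5 CPM in DMSO and 84.9 ± 6.28 in C646 (SD, n = 3), overlapping between the groups, with a log2 difference of 0.12 (SE 0.15, adjusted p = 0.548 in edgeR's quasi-likelihood test).

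SOCS1 had the fewest reads of the 10 genes when all reads were counted. It had 30, 7 and 32 T > C reads in DMSO and 26, 28 and 71 in C646, so that DMSO replicate 2 was low and C646 replicate 3 high. The groups overlapped in scaled T > C reads, and the log2 fold change of 0.72 (SE 0.43) did not pass the test (adjusted p = 0.148 in edgeR's quasi-likelihood test). All reads were 3.55 ± 1.44 CPM in DMSO and 7.87 ± 3.50 in C646 (SD, n = 3), a log2 difference of 1.15 (SE 0.38) with an adjusted p of 0.0337 in edgeR's quasi-likelihood test, above the limit of the call. With a library left out, the log2 fold change ran from 0.28 (without C646 replicate 3) to 1.14 (without DMSO replicate 3) in T > C reads and from 0.71 to 1.39 in all reads, at the same 2 libraries, and SOCS1 was not called in any of these fits. It was called higher in T > C reads when these were scaled by TMM on themselves (1.54, adjusted p = 0.00432 in edgeR's quasi-likelihood test) or by their own DESeq2 size factors (1.52, adjusted p = 0.00802 in DESeq2), and in all reads without a filter on low counts (1.15, adjusted p = 0.00330 in edgeR's quasi-likelihood test). A model with a term for the replicate number also called SOCS1 higher in all reads.

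Within a library, the log2 ratio of T > C reads of CISH to those of SOCS3 was 2.76 ± 0.395 in DMSO and −2.28 ± 0.248 in C646 (SD, n = 3), so that CISH gave more T > C reads than SOCS3 in DMSO and fewer in C646. The ratio of CISH to SOCS2 was 0.83 ± 0.270 in DMSO and −0.89 ± 0.480 in C646, and that of SOCS2 to SOCS3 was 1.93 ± 0.175 and −1.39 ± 0.508. Each of these ratios was separated between the groups. The ratio of CISH to SOCS1, 4.21 ± 1.12 in DMSO and 0.35 ± 0.548 in C646, was separated as well. So was that of SOCS1 to SOCS2, −3.38 ± 0.854 and −1.24 ± 0.351. The ratio of SOCS1 to SOCS3, −1.45 ± 0.758 in DMSO and −2.63 ± 0.401 in C646, overlapped between the groups. In all, 10 pairs of related genes were compared in this way. The smallest p that an exact two-sided permutation test of 3 against 3 libraries allows is 0.1, so that no pair could pass, and the p-values ran from 0.1 to 0.6 (0.143 to 0.6 after Benjamini-Hochberg adjustment over the 10 pairs).

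Fewer of the 10 genes were called in total mRNA than in T > C reads. In all reads 1 of 10 genes (CISH) was called lower, where 1.87% of 10835 tested genes were, and 1 of 10 (SOCS3) higher, where 5.92% were. Beside SOCS3, FLT3, STAT5A and PIM2 had higher values at an adjusted p of at most 0.01 in edgeR's quasi-likelihood test, which makes 4 of 10, where 9.86% of the tested genes had such a value. With a library left out, the adjusted p of FLT3 in this test ran from 0.00785 to 0.0192. It was at most 0.01 only without C646 replicate 1. That of STAT5A ran from 0.00255 to 0.0120 and exceeded 0.01 only without DMSO replicate 2. STAT5A was called higher without DMSO replicate 1, without DMSO replicate 3, without C646 replicate 1 or without C646 replicate 2, with log2 fold changes of 1.06, 1.08, 1.08 and 1.06, so that 2 genes were then called higher. The median log2 fold change in all reads was 0.55 over the 10 genes and −0.003 over all tested genes. These medians and counts describe the 10 genes and were not tested.

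Groups that did not overlap were common throughout the data. In scaled T > C reads 7 of 10 genes did not overlap, 6 of them lower in C646, where 62.3% of the tested genes did not. In all reads 7 of 10 did not overlap, 1 of them lower, where 47.6% of the tested genes did not.

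**Figure D2:**
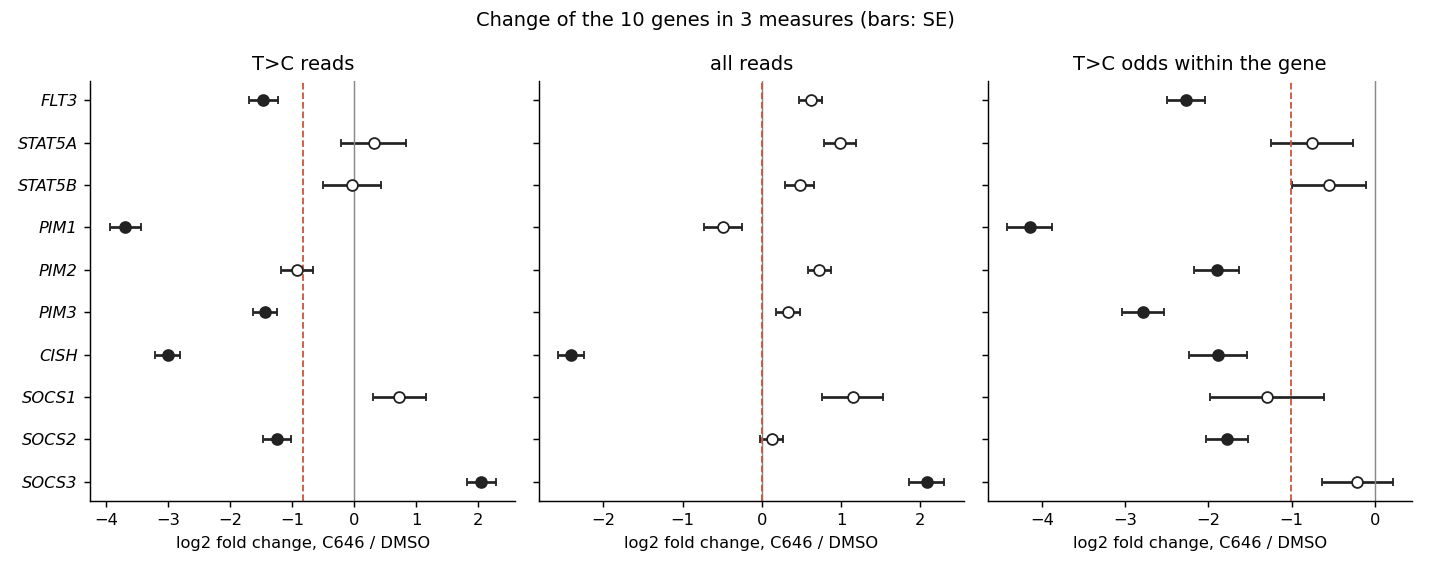
Log2 fold change of C646 over DMSO (x axis) of the 10 genes (rows) in T > C reads, in all reads and in the odds of T > C against other reads of the same gene, with SE bars. Filled points were called, open points were not, and the dashed line is the median of all tested genes (−0.83, −0.003 and −1.004). PIM1 and CISH lie furthest left in T > C reads, and in all reads CISH is the filled point on the left and SOCS3 the filled point on the right.

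The odds that a read of a gene is a T > C read compare reads with and without conversions inside 1 gene and library and need no scaling between libraries. By these odds 6 of 10 genes were called lower, where 38.3% of the tested genes were, and 0 of 10 higher, where 0.790% were. By edgeR's quasi-likelihood test no gene of the 10 was higher at an unadjusted p under 0.05 either. The log2 fold change of the odds was −4.15 (SE 0.27) for PIM1, −2.79 (SE 0.25) for PIM3, −2.27 (SE 0.23) for FLT3, −1.90 (SE 0.27) for PIM2, −1.89 (SE 0.34) for CISH and −1.77 (SE 0.25) for SOCS2. PIM2, which missed the size limit in T > C reads, was thus called by this measure. Its reads without conversions, the other side of the odds, rose from 40.4 ± 3.41 to 79.7 ± 6.15 scaled CPM in C646 (SD, n = 3), without overlap. Such reads also rose without overlap for PIM3, FLT3 and SOCS2 and for the genes not called. They overlapped for PIM1 and fell for CISH. The part of these changes in the odds was not tested. The values not called were −1.29 (SE 0.69) for SOCS1, −0.76 (SE 0.49) for STAT5A, −0.55 (SE 0.44) for STAT5B and −0.21 (SE 0.43) for SOCS3. With a library left out they ran from −1.99 to −0.60 for SOCS1, from −1.22 to −0.16 for STAT5A and from −0.78 to −0.35 for STAT5B, and none was called. The median was −1.83 over the 10 genes and −1.004 over all tested genes.

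**Figure D3:**
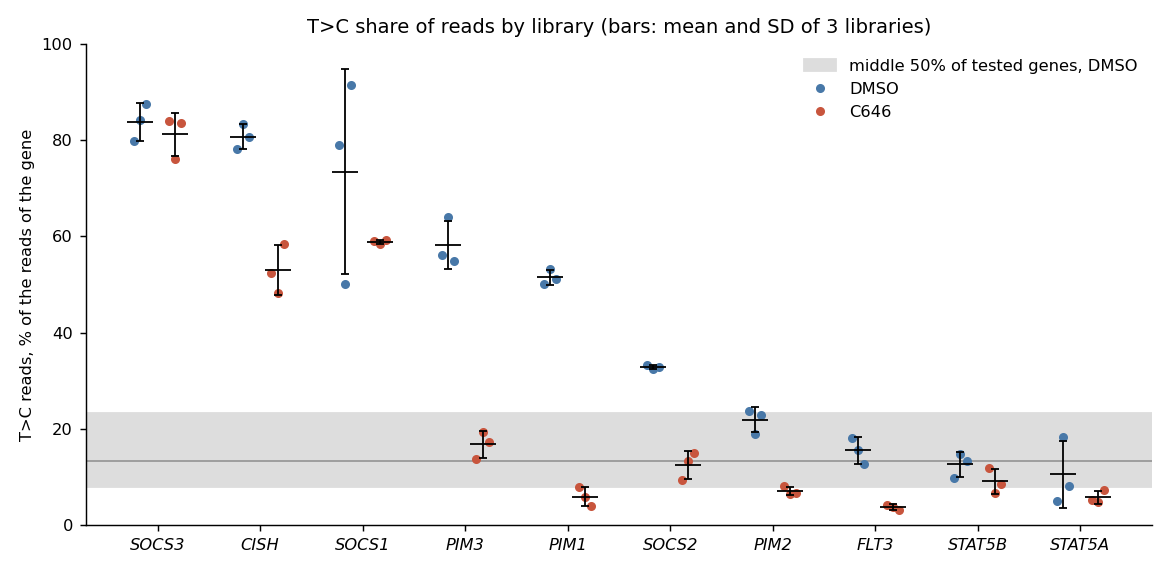
T > C reads as a percentage of the reads of each gene (y axis, 0 to 100) in the 3 DMSO (blue) and 3 C646 (red) libraries, with the mean and SD as black marks and genes ordered by their DMSO mean. The grey band runs between the quartiles of the tested genes in DMSO (7.94% to 23.3%) and the line in it their median (13.3%). PIM1 falls from 51.5% to 5.90% while SOCS3 is at 83.8% in DMSO and 81.2% in C646.

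The 10 genes differed widely in the share of their reads that were T > C reads in DMSO. This share also depends on how many T bases a read covers, since a read from labelled RNA need not show a conversion. SOCS3 came first with 83.8% ± 3.89 (SD, n = 3), followed by CISH with 80.7% ± 2.57 and SOCS1 with 73.5% ± 21.3, and these 3 overlapped as neighbours. SOCS1 had few reads, as DMSO replicate 2 had 7 T > C reads of 14 (95% Wilson interval of the share 26.8% to 73.2%). DMSO replicate 3 had 32 of 35 (77.6% to 97.0%), so that the intervals of these libraries do not overlap. PIM3 at 58.3% ± 5.00 overlapped SOCS1, and below it PIM1 at 51.5% ± 1.57, SOCS2 at 32.8% ± 0.444 and PIM2 at 21.9% ± 2.57 each stood apart from their neighbours. FLT3 at 15.5% ± 2.75, STAT5B at 12.6% ± 2.56 and STAT5A at 10.5% ± 7.01 overlapped and lay between the quartiles of the tested genes, 7.94% and 23.3%. Of the tested genes, 99.7% had a lower DMSO share than SOCS3, 99.5% a lower one than CISH and 95.2% a lower one than PIM1.

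After C646 the order changed. The share was 81.2% ± 4.43 (SD, n = 3) for SOCS3, 58.9% ± 0.461 for SOCS1 and 53.0% ± 5.12 for CISH, and it was 16.8% ± 2.81 for PIM3, 12.5% ± 2.90 for SOCS2 and 5.90% ± 2.01 for PIM1. The share of 6 of 10 genes did not overlap between the groups, all 6 lower in C646, where 66.7% of the tested genes did not overlap. T > C conversions per covered T, a measure that counts bases in place of reads, gave the same order of the 10 genes in DMSO. They ran from 8.06% ± 0.965 (SD, n = 3) for SOCS3 and 6.12% ± 0.0498 for CISH down to 1.18% ± 0.255 for FLT3, 0.641% ± 0.225 for STAT5B and 0.544% ± 0.462 for STAT5A. In C646 they were 6.55% ± 0.347 for SOCS3, 2.88% ± 0.313 for CISH, 0.319% ± 0.143 for PIM1 and 0.188% ± 0.0269 for FLT3. For SOCS3, whose share of T > C reads overlapped between the groups near the top of its scale, the conversions per covered T did not overlap (at least 7.07% in DMSO and at most 6.94% in C646), nor did the conversions per T > C read, at 3.02 ± 0.191 and 2.56 ± 0.0916 (SD, n = 3).

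The AU-rich nonamer TTATTTATT (written as DNA), a motif known from the 3′ UTRs of short-lived mRNAs, was searched on the transcript strand of the 3′ UTR entry with the most reads. PIM1 held 3 overlapping copies, CISH held 2 overlapping copies, and SOCS2 and STAT5B held 1 each. FLT3, STAT5A, PIM2, PIM3, SOCS1 and SOCS3 held none. Among tested genes with a 3′ UTR within 20% of the same length, 5.91% held a copy for the length of PIM1, 5.92% for that of CISH, 6.32% for that of SOCS2 and 11.3% for that of STAT5B. SOCS3 and CISH, with the highest shares of T > C reads in DMSO, differ in this nonamer. The shorter AU-rich motif ATTTA had 4 copies in SOCS3 and 3 in CISH, where genes of like length had a median of 3 and 2. It had 5 copies each in PIM1, SOCS2 and STAT5B, 4 in PIM3, 3 in FLT3 and 2 in PIM2. STAT5A and SOCS1 held none. Stretches of 30 bases around 1 copy are shown for the 2 genes with the largest falls, PIM1 at chr6:37174989-37175018 (plus strand) and CISH at chr3:50607093-50607122 (minus strand), both in GRCh38, with the nonamer in capitals.
PIM1: atgtatttatTTATTTATTtatttggttcc
CISH: tatacactatTTATTTATTtattctccttg

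Genes elsewhere in the pathway were called lower at a share near that of all tested genes. Of 72 further genes in 5 lists, 54 were tested in T > C reads, and 21 of these (38.9%, beside 33.0% of all tested genes) were called lower and 0 higher (beside 2.97%), with a median log2 fold change of −0.94. By edgeR's quasi-likelihood test 0 of the 54 were higher at an unadjusted p under 0.05, and DESeq2 called 21 lower and 0 higher. In all reads 62 were tested, of which PTPN6 and MYC (2 of 62) were called lower and AKT1 (1 of 62) higher, beside 1.87% and 5.92% of all tested genes. When T > C reads were scaled by TMM on themselves, PTPN6, SLA, MYC, TYK2, CCND3 and PIK3CD remained lower, which makes 6 of 51 tested, where 7.60% of all tested genes were lower.

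The counts per list stand beside the 33.0% of all tested genes called lower in T > C reads. Among receptors and ligands, 1 of 6 tested genes was called lower, EPOR, the erythropoietin receptor, with a log2 fold change in T > C reads of −1.71 (SE 0.42, adjusted p = 0.00124 in edgeR's quasi-likelihood test). The cytokine receptors IL6R (−0.82, SE 0.21, adjusted p = 0.00164) and IL7R (−0.73, SE 0.21, adjusted p = 0.00463) passed the p limit of edgeR's quasi-likelihood test but not the size limit. Of 19 kinases, adaptors and PI3K subunits, 9 fell (47.4%). The JAK-family kinase TYK2 had the largest of these falls among genes with at least 20 T > C reads on average (−2.31, SE 0.38), and the kinase AKT2 the smallest (−1.10, SE 0.33). AKT1, with a mean of 12 T > C reads per library, fell in T > C reads (−1.98, SE 0.58) and rose in all reads (1.55, SE 0.33, adjusted p = 0.00335 in edgeR's quasi-likelihood test). The other STAT genes gave 0 calls of 4 tested in edgeR and in DESeq2, with 2 at an unadjusted p under 0.05 in edgeR's quasi-likelihood test, and STAT6 (−0.81, SE 0.25) had an adjusted p of 0.00646 in edgeR's quasi-likelihood test but stayed under the size limit.

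Of 15 negative regulators, 6 fell (40.0%, near the 33.0% of all tested genes). PTPN6, the phosphatase SHP-1 that acts on JAK and receptor phosphotyrosines, dropped from 40.5 ± 3.26 to 1.86 ± 0.749 CPM of T > C reads (SD, n = 3), a log2 fold change of −4.48 (SE 0.26, adjusted p = 1.93e-14 in edgeR's quasi-likelihood test). It fell in all reads as well, by 1.21 on the log2 scale (SE 0.25, adjusted p = 0.00253 in edgeR's quasi-likelihood test). SOCS4, a further SOCS gene, had the smallest of these falls (−1.22, SE 0.29). Of 10 other known STAT5 targets, 5 fell, from MYC, the transcription factor of growth genes (−2.46, SE 0.19), to CDKN1A, the cell cycle inhibitor p21 (−1.002, SE 0.15). The D-type cyclins CCND3 (−2.31, SE 0.22) and CCND2 (−1.74, SE 0.28) and the survival factor BCL2 (−1.37, SE 0.22) were the others.

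**Figure D4:**
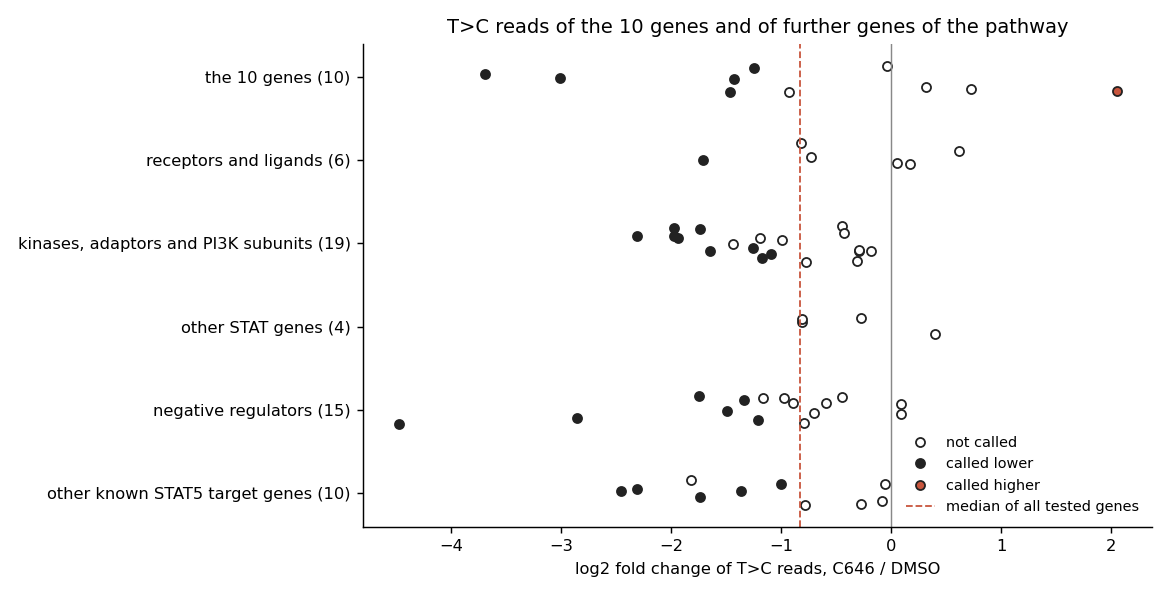
Log2 fold change of T > C reads, C646 over DMSO (x axis), of the 10 genes and of 5 lists of further pathway genes (rows, with the number tested). Black points were called lower, the red point (SOCS3) was called higher, open points were not called, and the dashed line is the median of all tested genes (−0.83). PTPN6 at −4.48 is the leftmost point.

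The pattern over libraries was shared with many genes. Among 2842 genes with at least 50 T > C reads on average, the log2 scaled T > C reads most like those of FLT3 over the 6 libraries were those of PFDN1, GNAI3 and YWHAZ, with Pearson's r between 0.996 and 0.997. Those most like PIM1 were ARHGEF2, CDCA4 and SRPK1, with r between 0.995 and 0.996. These 6 points are 2 groups of 3 libraries, so that r mostly reflects the difference between the groups, and 31.8% of the genes reached an r above 0.9 with FLT3 and 35.5% with PIM1.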

How the data were processed

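Members and gene lists were chosen with earlier results of these data known. With SLAM-Dunk v0.4.1 the authors aligned the reads of QuantSeq 3′ libraries to GRCh38, and they deposited raw counts of reads, T > C reads, conversions and multimapped reads per 3′ UTR entry. The deposited signal, read coverage over T positions, gave conversions per covered T, and the deposited CPM gave the filtered reads of each library. The study's methods name reads with at least 2 conversions, but 55.4% of the deposited gene values with a T > C read hold under 2 conversions per T > C read, so single-conversion reads are included. Between 7252597 and 10225448 reads per library bounded the precision.

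Counts were summed over the entries of a gene, mapped by Entrez identifier to RefSeq symbols. edgeR 4.0.16 in R 4.3.3 (filterByExpr, glmQLFit, glmQLFTest, Benjamini-Hochberg adjustment over all tested genes) compared the 3 C646 with the 3 DMSO libraries for T > C reads, all reads and the odds of T > C against other reads, in a model with a factor per library. SEs are the log2 fold change over the square root of F. The fits of T > C reads and of the odds were tested on simulated data with as many genes raised as lowered and known library sizes. This did not test the choice of scaling. Alternatives were other scalings, DESeq2 1.42.0, filters, the single entry with the most reads, call rules, a replicate block and leaving out each library. Multimapped reads made up at most 0.797% of the reads of a member, and no member entry overlaps another gene on either strand. Named further genes were, per list, those with the largest and smallest called change and a mean of at least 20 T > C reads, and called genes that rose; AKT1, STAT6, IL6R, IL7R and other genes named beside a count were chosen after seeing their values. Python 3.11.15, pandas 2.3.3, scipy 1.17.1 and matplotlib 3.10.9 were used.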

Additional observations from a re-analysis of the deposited data

How the results depend on the processing

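Of 414 alternative values for the log2 fold changes of the 10 genes, 381 kept direction and call, 16 passed the limits newly, 9 no longer passed them and 8 turned sign, all 8 in measures in which the gene was not called. Scaled by TMM on the T > C reads or tested with DESeq2 on size factors of T > C reads, 2 genes were lower and 2 higher in T > C reads. With edgeR's glmTreat against a log2 fold change of 1, 2 were lower (PIM1 and CISH). Genes higher in all reads numbered 2 with scaling by the filtered reads of the library, 2 without a filter, 5 at an adjusted p of 0.05 with no fold limit, and 1 to 2 with a library left out. STAT5B in T > C reads was 0.79 with TMM on the T > C reads, 0.77 with DESeq2 on their size factors and 0.17 with filtered reads. With a library left out it ran from −0.20 to 0.11, STAT5A in T > C reads from −0.12 to 0.70, and SOCS3 in the odds from −0.47 to 0.016. Scaling by filtered reads moved the median of all tested genes from −0.83 to −0.62 in T > C reads and from −0.003 to 0.20 in all reads. Over all tested genes, the calls in T > C reads went from 2548 lower and 229 higher to 596 and 717 when TMM used the T > C reads themselves, 565 and 660 by DESeq2 on size factors of T > C reads, 834 and 105 with glmTreat, 1038 and 125 of the 2843 genes with a mean of at least 50 T > C reads, and 3870 and 405 at an adjusted p of 0.05 with no fold limit. In all reads 203 lower and 641 higher became 90 and 1014 with filtered reads and 1585 and 1823 at an adjusted p of 0.05 with no fold limit, and in the odds 2958 and 61 became 1189 and 41 of those 2843 genes and 4690 and 130 with the looser rule. With a library left out, all reads gave 119 to 319 lower and 447 to 726 higher. The minimum of 50 leaves fewer genes to test, and the cause of the other changes was not tested.

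No label says whether a replicate number marks libraries run together, and they were treated as unpaired. Deviations from the group means correlated between −0.0014 and 0.231 for the same number in all reads (mean 0.122, against −0.064 for other numbers) and between 0.030 and 0.065 in T > C reads (mean 0.046, against −0.023). With the replicate block, 5 genes were lower and 1 higher in T > C reads, 1 lower and 2 higher in all reads (SOCS1 at 1.13), and 6 lower in the odds. STAT5A, STAT5B and SOCS1, with few T > C reads, were not tested at the minimum of 50.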
